A study of Mus musculus with 16 samples.

Results

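Chromatin accessibility was examined at the mouse genes of 2 E proteins, Tcf3 and Tcf12, and 2 Id proteins, Id2 and Id3, in 4 populations of CD4+ thymocytes. The peaks taken were those that overlapped the RefSeq gene body of 1 of these genes, or had it as the nearest protein-coding gene within 50 kb. This gave 37 of the 73442 peaks of the series: 4 at Tcf3, 13 at Tcf12, 13 at Id2 and 7 at Id3. Of these, 17 overlapped a gene body and 20 lay outside. All 37 passed the filter on low values, which asked for a 16-library mean of 10 or more.

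The libraries were made by ATAC-seq, which reads where a transposase can insert into DNA, from sorted thymocytes of C57BL/6J mice. The mice were CNS4FL/YFoxp3GFP/Y, called CNS4-sufficient here, or CNS4KO/YFoxp3GFP/Y, called CNS4-deficient. All of them carried the Foxp3-GFP reporter allele, and the ages are not given in the labels. CNS4 is a conserved non-coding sequence of the Foxp3 locus, and Foxp3 is the transcription factor that marks regulatory T cells. All cells were CD4+, CD8- and TCRβ+. Treg cells were sorted as Foxp3-GFP+ and preTreg cells as CD25+ without GFP. The remaining populations lacked both CD25 and GFP: cells labelled mSP (mature) were TCRβhi and CD24lo, and cells labelled smSP (semimature) were TCRβlo and CD24hi. Each genotype gave 2 mice and each mouse 1 library of every population, which makes 16 libraries in 8 groups of 2. Where 4 values are listed for a population, the order is sufficient mouse 1, sufficient mouse 2, deficient mouse 1 and deficient mouse 2.

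E proteins are basic helix-loop-helix transcription factors. Tcf3, which encodes E2A, and Tcf12, which encodes HEB, bind DNA as dimers at E box sequences and drive T cell development in the thymus. Id proteins have the helix-loop-helix part but not the basic part that contacts DNA, so they pair with E proteins and keep them off DNA. Id3 is known to be induced by T cell receptor signalling through Egr factors, and Id2 and Id3 are both known to be needed for normal regulatory T cells. Accessibility is not expression, and none of the values below measures RNA or protein.

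The values, called normalised counts here, are the reads of a peak after division by the size factor of its library. The libraries held 5585827 to 11437401 reads in peaks, with a median of 38 to 76 reads per peak. Exactly 1 peak was open in the sufficient libraries, at 47.7 to 140 normalised counts, and without a read in the 8 deficient ones. Because the labels picked this peak and its position was not compared with CNS4, it does not show which genotype is which. At the peaks of Foxp3 the sum was 245 to 416 in the Treg libraries and at most 6.85 in the others. Il2ra, which encodes the CD25 used to sort preTreg cells, did not set preTreg apart from the libraries labelled mSP and smSP. It summed to 1330 to 1735 in preTreg, 1433 to 1800 in mSP, 1414 to 1682 in smSP and 2111 to 2189 in Treg. At the Treg markers Ikzf2, Ctla4 and Tnfrsf18, every preTreg library lay above every library labelled mSP or smSP. The libraries labelled mSP and smSP went against the sort at maturation genes. Cd24a, which encodes the CD24 used to sort them, summed to 554 to 582 in the libraries labelled mSP and to 257 to 340 in those labelled smSP. S1pr1, the receptor that lets mature thymocytes leave, summed to 1607 to 2108 in the libraries labelled mSP and 2916 to 3486 in those labelled smSP. In addition, the descriptions of the libraries labelled mSP and smSP from deficient mouse 2 name the opposite populations from their titles, which were followed. Both names are therefore used only as labels, and the calls that depend on these libraries are given after the results by gene.

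The promoters of the 4 genes are shown first, since 7 of the 37 peaks overlap the window of a listed start. Peaks at the other listed starts of Tcf12 overlap windows that are not shown, and the strongest Tcf3 peak overlaps none. Each window shown is 250 bases before to 50 bases after the listed start, from RefSeq on GRCm38.p6, 5′ to 3′ on the strand of the gene. E boxes, searched as CANNTG, which reads the same on both strands, are in capitals. The Id3 window is chr4:136143572-136143871 on the plus strand, the Id2 window chr12:25096043-25096342 on the minus strand, the Tcf3 window chr10:80433586-80433885 on the minus strand and the window of the first of 3 listed starts of Tcf12 chr9:72111770-72112069 on the minus strand.
Id3: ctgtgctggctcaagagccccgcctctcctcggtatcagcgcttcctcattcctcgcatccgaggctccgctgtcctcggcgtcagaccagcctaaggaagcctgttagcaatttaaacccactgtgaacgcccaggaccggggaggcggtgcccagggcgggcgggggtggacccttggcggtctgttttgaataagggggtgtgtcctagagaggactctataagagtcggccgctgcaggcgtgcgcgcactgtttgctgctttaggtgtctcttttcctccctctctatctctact
Id2: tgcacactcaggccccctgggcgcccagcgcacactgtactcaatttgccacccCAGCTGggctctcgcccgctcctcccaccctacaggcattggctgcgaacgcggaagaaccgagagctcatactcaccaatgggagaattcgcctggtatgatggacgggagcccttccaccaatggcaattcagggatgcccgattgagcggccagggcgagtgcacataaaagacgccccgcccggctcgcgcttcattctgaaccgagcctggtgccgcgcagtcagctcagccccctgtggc
Tcf3: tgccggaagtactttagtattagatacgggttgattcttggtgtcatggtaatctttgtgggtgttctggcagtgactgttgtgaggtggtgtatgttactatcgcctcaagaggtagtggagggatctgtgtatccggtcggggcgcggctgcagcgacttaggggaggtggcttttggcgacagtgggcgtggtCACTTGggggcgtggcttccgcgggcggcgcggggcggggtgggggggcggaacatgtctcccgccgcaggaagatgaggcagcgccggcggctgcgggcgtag
Tcf12: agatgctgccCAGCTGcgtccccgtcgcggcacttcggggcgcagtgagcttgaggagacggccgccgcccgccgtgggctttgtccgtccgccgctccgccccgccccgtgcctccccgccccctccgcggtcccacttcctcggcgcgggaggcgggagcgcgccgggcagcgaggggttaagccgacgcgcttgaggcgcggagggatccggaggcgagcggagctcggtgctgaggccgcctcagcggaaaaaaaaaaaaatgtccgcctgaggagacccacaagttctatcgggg

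The Id3 window held 0 E boxes. The windows of Id2, Tcf3 and Tcf12 held 1 each, which began at -196, -54 and -240 from the listed start. Of 32851 mouse promoters of the same length, 72.3% held at least 1 E box, so its presence is common. The core GNGGGCG of Egr sites, searched on both strands, occurred 1 time at Id3, at -92, and 1 time at Id2, at -184. At Tcf12 it occurred 2 times, at -184 and -132, and at Tcf3 5 times, at -65, -49, -34, -11 and +41. The Tcf3 E box at -54 overlaps the core at -49. At least 1 match to this core stood in 31.3% of all promoters, at least 2 in 14.5% and at least 4 in 3.01%. The other listed starts of Tcf12 had windows with 2 E boxes and 1 E box, and neither held the Egr core. These matches are letters in a window and were not tested as sites of binding.

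Peaks are named below by the distance of their summit from the start of the gene, in kb, with minus for upstream. This start is the 5′ end of the RefSeq gene body, which at Tcf3 and Tcf12 differs from the listed starts of the windows above. At Tcf3, the summits named +0.362 and -0.08 kb lie at 21 and -421 bases from the listed start. Differences are log2 folds of normalised count + 1 with their standard errors, from 1 limma fit over 73140 peaks and all 16 libraries. A peak was called where the Benjamini-Hochberg adjusted p over all peaks was below 0.05. The comparisons with preTreg share the preTreg libraries and are therefore not independent of each other.

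Of the 4 comparisons between populations, preTreg against the libraries labelled mSP had the most calls. There 27 of the 37 peaks were called, 20 higher and 7 lower in preTreg (73.0%), against 58.3% of all peaks, of which 28.9% were higher and 29.4% lower. The median log2 fold of the 37 peaks was 0.38, and that of all peaks was 0.03. Between preTreg and the libraries labelled smSP, 21 peaks were called, 13 higher and 8 lower in preTreg (56.8%). Over all peaks 47.3% were called, 23.1% higher and 24.1% lower. Between Treg and preTreg, 10 were called, 4 higher and 6 lower in Treg (27.0%), close to the 28.8% of all peaks, with 14.2% higher and 14.6% lower. Between the libraries labelled mSP and smSP, 5 were called, all lower in mSP and all at Id3 (13.5%), against 15.9% of all peaks, with 8.65% higher and 7.3% lower. In total 8 of the 37 peaks were called in none of these 4 comparisons.

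Not every call held when 1 library was left out. Of the 27 calls of preTreg against mSP 18 held in all 16 such fits, of the 21 against smSP 11, of the 10 of Treg against preTreg 4, and of the 5 of mSP against smSP 3. The count for Treg against preTreg was 5 without the Treg library of sufficient mouse 1, where 23.5% of all peaks were called. It was 6 without the Treg library of sufficient mouse 2, the Treg library of deficient mouse 1 or the preTreg library of deficient mouse 1, where the shares of all peaks were 24.1%, 25.6% and 24.2%. In bulk libraries, more open chromatin per cell and a larger share of cells with the region open cannot be told apart. The heat map of the 37 peaks shows where each was highest. The highest mean was in preTreg for 16, in Treg for 14, in mSP for 5 and in smSP for 2, and 22 had their lowest mean in mSP. The same count over all peaks was not made, so these numbers do not set the 4 genes apart.

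**Figure D1:**
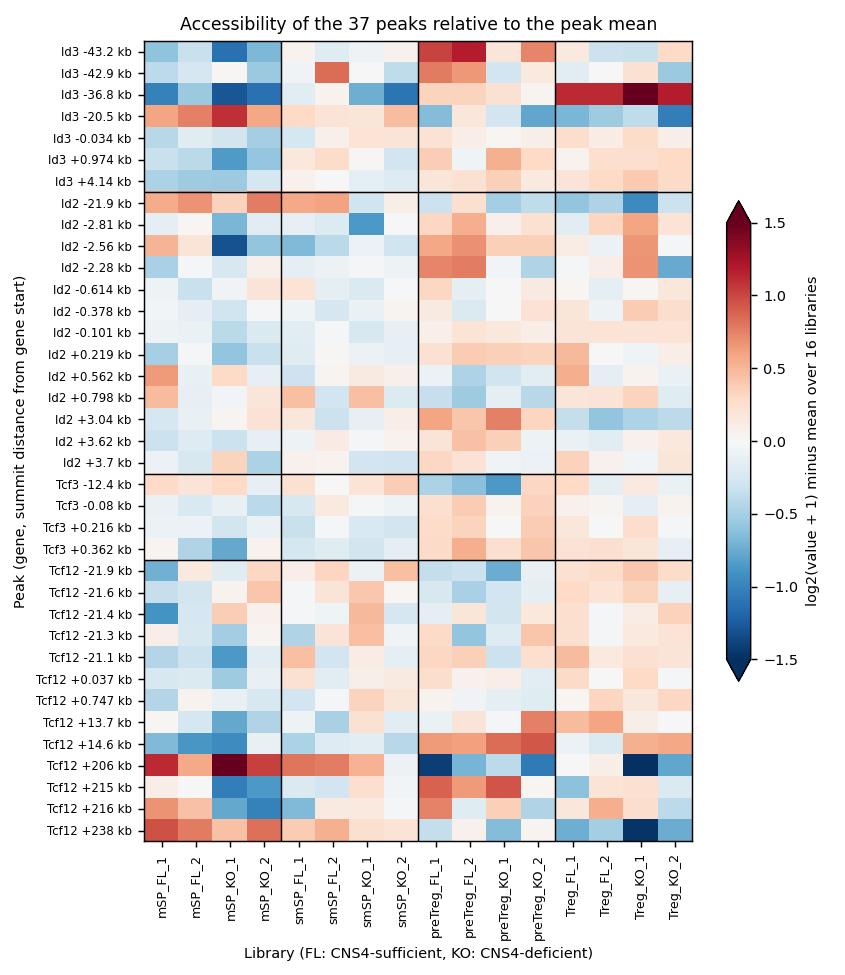
Each row is 1 of the 37 peaks, grouped by gene, and each column 1 of the 16 libraries, grouped by labelled population. Colour is the log2 normalised count relative to the mean of the row. Most rows of Id3 are low in the libraries labelled mSP, while the rows of Tcf12 do not share 1 pattern.

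At Id3, 6 of the 7 peaks were higher in preTreg than in the libraries labelled mSP and 1 was lower, where 58.3% of all peaks were called. Against the libraries labelled smSP, 3 were higher and 1 lower (57.1%, against 47.3% of all peaks). The Id3 start on chromosome 4 had 4 upstream peaks at -20.5 to -43.2 kb, which did not change together. All 7 peaks are given here with their values, which was decided after they had been seen.

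The upstream peak at -36.8 kb (chr4:136106911-136107119) was highest in Treg and lowest in mSP. It held 119, 119, 162 and 124 normalised counts in the Treg libraries, 68.5, 68.8, 63.7 and 56.1 in preTreg, 26.4, 36.8, 21.8 and 24.4 in mSP and 48.3, 56.5, 32.2 and 25.0 in smSP. Every Treg library lay above every preTreg library, and every preTreg library above all those labelled mSP. The smSP library of sufficient mouse 2 lay just above the lowest preTreg library. Treg exceeded preTreg by a log2 fold of 1.01 ± 0.16 (adjusted p = 9.88e-06), and preTreg exceeded mSP by 1.23 ± 0.16 (9.43e-08) and smSP by 0.72 ± 0.16 (0.000491). In the sufficient mice alone the last was 0.39 and not called (0.205).

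The peak at -43.2 kb (chr4:136100468-136100715) had its maximum in preTreg instead. It held 104, 116, 58.2 and 85.5 normalised counts in preTreg and 56.6, 40.7, 40.1 and 62.4 in Treg. The libraries labelled mSP held 33.2, 40.3, 22.9 and 31.6 and those labelled smSP 52.9, 44.7, 48.4 and 53.2. All preTreg libraries lay above those labelled mSP and smSP, and the preTreg library of deficient mouse 1 lay below the highest Treg library. Relative to the SP labels, the log2 fold of preTreg was 1.46 ± 0.18 over mSP (adjusted p = 2.31e-08) and 0.82 ± 0.18 over smSP (0.00037), and Treg fell by 0.83 ± 0.18 on the log2 scale from preTreg (0.000525). Thus the pair of upstream peaks at -36.8 and -43.2 kb moved in opposite directions between preTreg and Treg.

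The peak at -20.5 kb (chr4:136123142-136123370) was the only Id3 peak called lower in preTreg than in mSP. It held 82.6, 92.3, 117 and 81.8 normalised counts in mSP and 66.7, 62.8, 61.8 and 75.0 in smSP. It held 34.3, 60.9, 44.3 and 31.2 in preTreg and 33.4, 37.3, 41.3 and 25.9 in Treg. No preTreg or Treg library reached the lowest library labelled smSP. In preTreg the log2 fold was -1.14 ± 0.19 against mSP (adjusted p = 3.57e-06) and -0.67 ± 0.19 against smSP (0.00351). The latter was not called without the preTreg library of sufficient mouse 1 (-0.47, 0.0548).

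The weakest peak of the 37 was the one at -42.9 kb (chr4:136100923-136101047), with 37.7, 34.4, 17.5 and 23.9 normalised counts in preTreg and 16.2, 17.9, 21.8 and 14.4 in mSP. Its groups overlapped, and its log2 fold of 0.62 ± 0.27 (adjusted p = 0.0478) lost the call in 8 of the 16 fits that left out a library.

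The promoter peak at -0.034 kb (chr4:136143618-136143994), which overlaps the Id3 sequence above, was much stronger and changed less. It held 310, 279, 314 and 276 normalised counts in Treg, 301, 277, 263 and 274 in preTreg, 194, 227, 213 and 181 in mSP and 215, 271, 297 and 296 in smSP. All libraries labelled mSP but 1 lay below every other library. The log2 fold of preTreg over mSP was 0.45 ± 0.09 (adjusted p = 7.63e-05), and that of mSP over smSP was -0.40 ± 0.09 (0.00253). With the libraries of deficient mouse 2 named by their descriptions, the first was 0.28 (0.0938).

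Within the gene, the peak at +0.974 kb (chr4:136144669-136144895) held 89.9, 66.2, 101 and 85.5 normalised counts in preTreg, 71.8, 82.8, 82.7 and 85.4 in Treg, 54.5, 52.0, 37.9 and 45.9 in mSP and 77.1, 83.9, 69.9 and 56.5 in smSP. Its log2 fold of preTreg over mSP was 0.83 ± 0.15 (adjusted p = 1.28e-05), and 0.53 in the sufficient mice alone (0.0396). Beyond the gene, the peak at +4.14 kb (chr4:136147775-136148158) held 277, 287, 314 and 270 in preTreg, 278, 301, 321 and 297 in Treg, 175, 168, 168 and 204 in mSP and 254, 242, 222 and 213 in smSP. Its log2 fold of preTreg was 0.68 ± 0.09 over mSP (5.07e-08) and 0.30 ± 0.09 over smSP (0.00539). The latter was not called after quantile normalisation (0.0607) or in the sufficient mice alone (0.18, 0.278). At both peaks every preTreg and Treg library lay above every library labelled mSP. The promoter, the gene and the downstream peak were thus low in mSP and did not pass the test between Treg and preTreg.

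**Figure D2:**
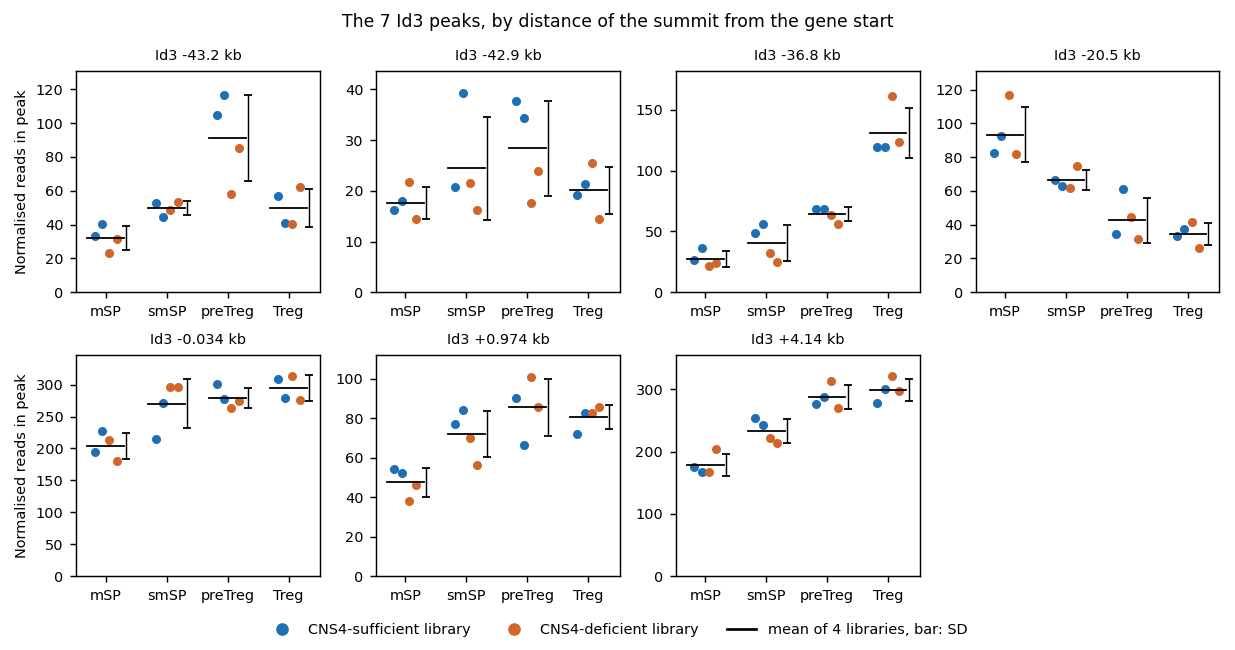
Normalised counts of the 7 Id3 peaks, 1 panel per peak, by labelled population. Points are single libraries, marked by genotype, lines are means and whiskers SDs over 4 libraries. The peak at -36.8 kb is highest in Treg (119 to 162), the one at -43.2 kb in preTreg (58.2 to 116) and the one at -20.5 kb in mSP (81.8 to 117).

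Id2, the other Id gene, had the strongest of the 37 peaks and smaller changes. Of its 13 peaks, 6 were higher and 3 lower in preTreg than in mSP (69.2%, against 58.3% of all peaks). Against smSP, 5 were higher and 2 lower (53.8%, against 47.3% of all peaks). The promoter peak at -0.101 kb (chr12:25096009-25096351), which overlaps the Id2 sequence above, held 727, 738, 736 and 737 normalised counts in Treg, 671, 735, 714 and 683 in preTreg, 604, 595, 482 and 550 in mSP and 567, 625, 539 and 585 in smSP. Every Treg and preTreg library lay above every library labelled mSP or smSP. In preTreg the log2 fold was 0.33 ± 0.06 over mSP (adjusted p = 1.65e-05) and 0.28 ± 0.06 over smSP (0.000307). After quantile normalisation the latter was not called (0.0972).

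The peak at +3.04 kb (chr12:25092699-25093139), just beyond the end of Id2, was highest in preTreg. It held 140, 124, 157 and 116 normalised counts there, against 71.8, 60.7, 66.9 and 70.1 in Treg, 77.4, 85.2, 95.2 and 108 in mSP and 104, 73.7, 84.6 and 98.9 in smSP. The preTreg libraries did not overlap with any other. Treg fell by 0.97 ± 0.14 on the log2 scale from preTreg (adjusted p = 1.09e-06), and preTreg exceeded mSP by 0.55 ± 0.14 (0.00102) and smSP by 0.57 ± 0.14 (0.000978).

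Upstream of Id2 the peaks differed in direction. The peak at -2.81 kb (chr12:25098806-25099035) held 158, 187, 135 and 150 normalised counts in preTreg, 114, 160, 192 and 147 in Treg, 115, 130, 79.2 and 113 in mSP and 117, 111, 69.9 and 128 in smSP. All preTreg libraries exceeded those labelled mSP and smSP, with log2 folds of 0.54 ± 0.16 (adjusted p = 0.00568) and 0.59 ± 0.16 (0.00371). The weaker peak at -2.56 kb (chr12:25098578-25098692) held 36.8, 39.7, 31.4 and 31.2 in preTreg, 26.3, 22.8, 38.9 and 24.0 in Treg, 34.9, 27.8, 9.18 and 15.8 in mSP and 15.0, 18.0, 22.8 and 19.6 in smSP. Its log2 fold of preTreg was 0.80 ± 0.24 over mSP (0.00539; 0.29 and 0.520 in the sufficient mice alone), where the groups overlapped, and 0.86 ± 0.24 over smSP (0.00386), where they did not.

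The most distant Id2 peak, at -21.9 kb (chr12:25117947-25118159), was lower in the CD25+ and Foxp3-GFP+ cells. It held 154, 167, 133 and 178 normalised counts in mSP, 155, 159, 84.6 and 111 in smSP, 83.1, 124, 72.9 and 80.0 in preTreg and 68.8, 75.2, 53.5 and 83.5 in Treg. All libraries labelled mSP exceeded all preTreg libraries, while those labelled smSP overlapped them. The log2 fold of preTreg was -0.83 ± 0.15 against mSP (adjusted p = 1.12e-05) and -0.48 ± 0.15 against smSP (0.00668). The latter was not called without the preTreg library of sufficient mouse 1 (-0.34, adjusted p = 0.0793) or the smSP library of deficient mouse 2 (-0.39, 0.0514). With the mouse as a block, Treg was also called lower than preTreg here (adjusted p = 0.0411, against 0.0820 without the block).

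In the Id2 gene body, the peak at +0.219 kb (chr12:25095814-25095929) held 55.7, 61.8, 60.9 and 59.7 normalised counts in preTreg, 66.8, 46.9, 45.0 and 50.9 in Treg, 33.2, 46.6, 31.0 and 37.3 in mSP and 41.4, 47.9, 44.3 and 43.5 in smSP. All preTreg libraries were above those labelled mSP and smSP. The log2 fold over mSP was 0.69 ± 0.17 (adjusted p = 0.00101), while that over smSP, 0.42 ± 0.17 (0.0456), lost the call in 8 of the 16 fits without 1 library. The peak at +0.798 kb (chr12:25095251-25095362) was lowest in preTreg, at 44.5, 38.8, 51.7 and 42.3 against 64.7, 64.9, 71.8 and 49.9 in Treg, 79.1, 52.0, 55.1 and 64.6 in mSP and 78.3, 46.3, 77.9 and 48.9 in smSP. Its 3 calls were weak: -0.48 ± 0.19 against mSP (0.028), -0.46 ± 0.19 against smSP (0.0427) and 0.49 ± 0.19 for Treg over preTreg (0.0472). They were lost in 4, 7 and 7 of the 16 fits without 1 library. DESeq2 called none of them.

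Tcf3, the gene of E2A, had 4 peaks, of which 3 lay within 0.4 kb of the start of the gene on chromosome 10. These 3 were higher in preTreg than in both the libraries labelled mSP and those labelled smSP, and the distal peak was lower. All 4 were thus called in both comparisons, where 58.3% and 47.3% of all peaks were called. The strongest, at -0.08 kb (chr10:80433935-80434285), held 420, 462, 368 and 451 normalised counts in preTreg, 371, 363, 324 and 367 in Treg, 329, 302, 327 and 267 in mSP and 300, 392, 347 and 335 in smSP. All preTreg libraries exceeded all labelled mSP, and 1 library labelled smSP lay among them. Here the log2 fold of preTreg was 0.47 ± 0.09 over mSP (adjusted p = 2.45e-05) and 0.31 ± 0.09 over smSP (0.00412). Over smSP it was not called without the smSP library of sufficient mouse 1 (0.21, adjusted p = 0.0605) or after quantile normalisation (0.18, 0.0831).

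Treg was lower than preTreg at the same Tcf3 peak by a small margin, with a log2 fold of -0.25 ± 0.09 (adjusted p = 0.0282). The call was not stable: it was lost with all libraries kept under equal totals (-0.21, 0.0722) and quantile normalisation (-0.16, 0.171). It was also lost without the Treg library of sufficient mouse 1, sufficient mouse 2 or deficient mouse 1, and without the preTreg library of sufficient mouse 2 or deficient mouse 2 (adjusted p up to 0.193).

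The peaks at +0.216 kb (chr10:80433702-80433816) and +0.362 kb (chr10:80433566-80433666) overlap the Tcf3 sequence above. The first held 165, 172, 137 and 178 normalised counts in preTreg, 154, 137, 164 and 135 in Treg, 129, 129, 112 and 128 in mSP and 108, 135, 117 and 113 in smSP. Its log2 fold of preTreg was 0.38 ± 0.12 over mSP (adjusted p = 0.0054, and 0.0593 without the preTreg library of deficient mouse 2) and 0.46 ± 0.12 over smSP (0.00146). The second held 67.7, 81.2, 65.5 and 74.4 in preTreg, 64.7, 65.6, 63.2 and 50.9 in Treg, 57.0, 40.3, 32.1 and 57.4 in mSP and 46.0, 48.6, 45.7 and 50.0 in smSP. Its folds were 0.65 ± 0.17 over mSP (0.00175) and 0.59 ± 0.17 over smSP (0.00578). At both peaks all preTreg libraries lay above all of those labelled mSP and smSP.

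The distal Tcf3 peak at -12.4 kb (chr10:80446373-80446475) held 25.7, 22.9, 19.4 and 45.0 normalised counts in preTreg, where deficient mouse 2 stood apart, against 44.3, 41.2, 44.8 and 33.0 in mSP, 42.6, 36.1, 41.6 and 46.7 in smSP and 44.5, 32.4, 40.1 and 33.6 in Treg. The log2 folds were -0.58 ± 0.22 against mSP (adjusted p = 0.0219) and -0.61 ± 0.22 against smSP (0.0188). Both were lost without the preTreg library of sufficient mouse 2 (0.0626 and 0.0574) or of deficient mouse 1 (0.269 and 0.237). The first was also lost without the mSP library of sufficient mouse 1 (0.0611) or deficient mouse 1 (0.0963), and the second without the smSP library of sufficient mouse 1 (0.0692) or deficient mouse 2 (0.0569).

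Tcf12, the gene of HEB, spans 267642 bases of chromosome 9 and its 13 peaks moved in both directions. Of these, 5 were higher and 2 lower in preTreg than in mSP (53.8%, against 58.3% of all peaks). Against smSP, 2 were higher and 4 lower (46.2%, against 47.3% of all peaks). The calls over all peaks went both ways too, with 28.9% higher and 29.4% lower in preTreg than in mSP. The largest log2 fold of the 37 peaks in these 4 comparisons was a loss deep in this gene, at +206 kb (chr9:71905403-71905591). The peak held 49.4, 33.2, 64.3 and 45.9 normalised counts in mSP and 39.1, 38.4, 32.2 and 20.6 in smSP. It held 7.71, 13.2, 16.6 and 10.1 in preTreg and 22.3, 23.5, 4.86 and 12.5 in Treg. No preTreg library reached the lowest one labelled mSP or smSP. At this peak the log2 fold of preTreg was -1.94 ± 0.28 against mSP (adjusted p = 4.14e-07) and -1.39 ± 0.28 against smSP (0.000117).

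The peak at +238 kb (chr9:71874245-71874601) fell over the same populations and further in Treg. It held 162, 143, 112 and 148 normalised counts in mSP, 108, 121, 98.1 and 95.6 in smSP, 64.2, 86.5, 52.6 and 85.5 in preTreg and 49.6, 58.0, 29.2 and 49.0 in Treg. No preTreg library reached any library labelled mSP or smSP, and only the one of deficient mouse 1 lay below the highest Treg library. The log2 fold of preTreg was -0.98 ± 0.16 against mSP (adjusted p = 5.7e-06) and -0.57 ± 0.16 against smSP (0.00484, and 0.0646 without the preTreg library of deficient mouse 1). That of Treg against preTreg was -0.64 ± 0.16 (0.00295), and -0.47 in the sufficient mice alone, where it was not called (0.157).

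In contrast, the peak at +14.6 kb (chr9:72097199-72097407), near the 5′ end of Tcf12, was highest in preTreg. It held 71.1, 69.7, 81.2 and 87.3 normalised counts there and 42.5, 38.6, 65.7 and 68.2 in Treg. The libraries labelled mSP held 28.1, 24.2, 22.9 and 41.6 and those labelled smSP 32.2, 39.2, 40.3 and 33.7. The preTreg libraries lay above all others. In preTreg the log2 fold was 1.41 ± 0.18 over mSP (adjusted p = 4.75e-08) and 1.07 ± 0.18 over smSP (9.89e-06). Treg was lower than preTreg by a log2 fold of -0.55 ± 0.18 (0.0195), a call lost without the Treg library of sufficient mouse 2 (0.0652) or the preTreg library of sufficient mouse 1 (0.0545) or deficient mouse 2 (0.0663).

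The peak at +215 kb (chr9:71896470-71896636) was also highest in preTreg, at 50.5, 42.4, 52.6 and 27.6 normalised counts, against 17.2, 31.1, 31.6 and 23.0 in Treg, 28.9, 26.9, 12.6 and 14.4 in mSP and 23.0, 22.0, 32.2 and 26.1 in smSP. The preTreg library of deficient mouse 2 was the lowest of its group and overlapped with all the others. The log2 fold over mSP was 1.07 ± 0.24 (adjusted p = 0.000268). The folds of preTreg over smSP, 0.70 ± 0.24 (0.0169), and of Treg over preTreg, -0.73 ± 0.24 (0.0209), were not called in some fits without 1 library, with adjusted p up to 0.157 and 0.183, both without the preTreg library of deficient mouse 1.

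The Tcf12 promoter peak at +0.037 kb (chr9:72111808-72112058), which overlaps the Tcf12 sequence above, held 140, 122, 126 and 104 normalised counts in preTreg, 143, 117, 144 and 115 in Treg, 98.7, 100, 80.3 and 108 in mSP and 137, 104, 124 and 128 in smSP. Its log2 fold of preTreg over mSP was 0.34 ± 0.13 (adjusted p = 0.0238). That call was lost without the preTreg library of sufficient mouse 1 (0.0976) or deficient mouse 1 (0.113), or the mSP library of sufficient mouse 1 (0.0561) or deficient mouse 1 (0.149). Upstream, 5 peaks lay close together between -21.1 and -21.9 kb. The one at -21.9 kb (chr9:72133699-72133822) was higher in Treg, at 35.4, 36.6, 40.1 and 36.5, than in preTreg, at 23.1, 23.8, 17.5 and 27.6, with no overlap. The log2 fold was 0.68 ± 0.23 (0.0215), lost in 5 of the 16 fits without 1 library.

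The other peaks called were weaker and each lost its call in some of the 16 fits without 1 library. They were Id2 +3.62 kb (log2 fold of preTreg over mSP 0.46, adjusted p = 0.0135), Id2 +0.562 kb (-0.43, 0.0491), Tcf12 +13.7 kb (0.57, 0.0152; 0.16 and 0.665 in the sufficient mice alone) and Tcf12 -21.1 kb (0.59, 0.0133). Tcf12 -21.6 kb was higher in Treg than in preTreg (0.46, 0.0264) and lower in preTreg than in smSP (-0.43, 0.0248). The 8 peaks without a call in these 4 comparisons were 4 at Id2, at +3.7, -0.378, -0.614 and -2.28 kb, and 4 at Tcf12, at +216, +0.747, -21.3 and -21.4 kb, with means of 22.8 to 82.8 normalised counts.

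**Figure D3:**
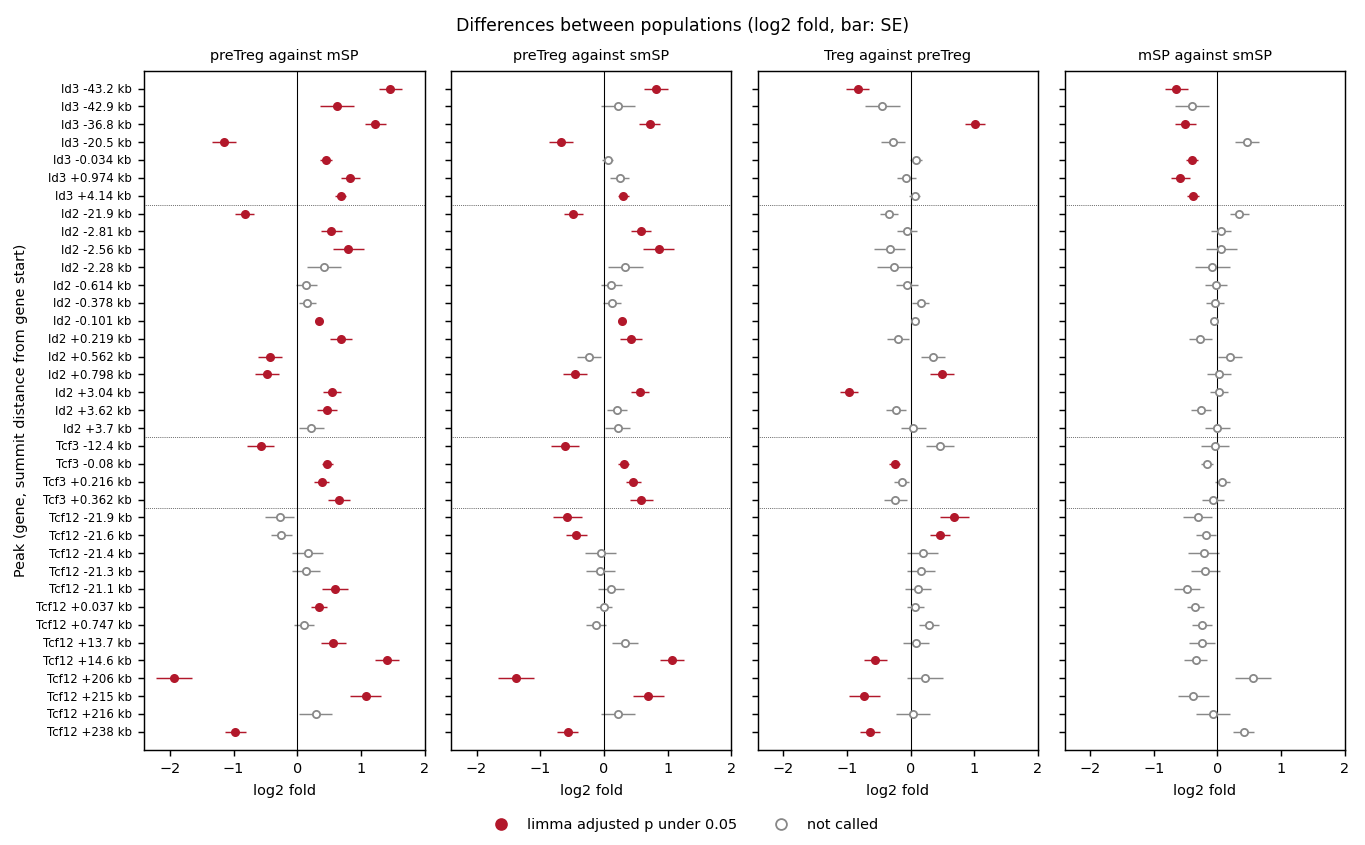
Log2 fold of each of the 37 peaks with its standard error, grouped by gene, in 1 panel for each of the 4 comparisons between labelled populations. Filled points passed the test. Folds against mSP run from -1.94 (Tcf12 +206 kb) to 1.46 (Id3 -43.2 kb), and in the panel of mSP against smSP the 5 filled points are all at Id3 and all below 0.

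Peaks that overlap a promoter window and the remaining peaks differed in size of signal and of change. The 7 peaks that overlap a promoter window had a median mean of 118 normalised counts, and the 30 others 50.3. The median absolute log2 fold between preTreg and mSP was 0.34 at the 7 and 0.57 at the 30. Between Treg and preTreg it was 0.08 and 0.27, and all 10 calls of that comparison were among the 30. The direction was the same over all peaks tested: 12813 promoter peaks had a median absolute log2 fold of 0.31 between preTreg and mSP, and the other 60327 one of 0.50. Between Treg and preTreg these medians were 0.15 and 0.27. Called were 19.9% of promoter peaks and 30.7% of the others, against 0 of 7 and 10 of 30 among the members. The 10 include Tcf3 -0.08 kb, which spans the start of the RefSeq gene body but overlaps no promoter window.

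The sum over the peaks of a gene gives 1 value per library and gene. These sums were tested with limma over 13526 protein-coding genes, of which 69.0% were called between preTreg and mSP, 62.5% between preTreg and smSP, 39.2% between Treg and preTreg and 26.0% between mSP and smSP. Sums are compared within a gene, since the genes differ in number and width of peaks. The median log2 fold of all genes was 0.13 between preTreg and mSP and 0.14 between preTreg and smSP.

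The Id3 sum was 888, 882, 986 and 884 normalised counts in Treg, 912, 911, 861 and 826 in preTreg, 735, 801, 752 and 735 in smSP and 582, 634, 602 and 583 in mSP. The order was thus Treg and preTreg, which did not pass the test against each other (log2 fold 0.05, adjusted p = 0.485), then smSP, then mSP, with no overlap between these 3 levels. For the sum, the log2 fold of preTreg was 0.55 ± 0.06 over mSP (8.65e-12) and 0.21 ± 0.06 over smSP (0.000863). Over smSP it was 0.09 after quantile normalisation (0.163), which moved the median of all genes in that comparison to 0.03.

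The Id2 sum was 1530, 1613, 1519 and 1456 in preTreg, 1474, 1445, 1540 and 1476 in Treg, 1395, 1362, 1167 and 1346 in mSP and 1361, 1362, 1200 and 1327 in smSP. Every preTreg and Treg library lay above every library labelled mSP and smSP. For preTreg the log2 fold was 0.22 ± 0.05 over mSP (adjusted p = 8.58e-05) and 0.22 ± 0.05 over smSP (8.77e-05). Within the upper pair and within the lower pair the populations did not pass the test (0.499 and 0.964).

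The Tcf3 sum was highest in preTreg, at 678, 739, 590 and 749. It was 634, 598, 591 and 587 in Treg, 497, 612, 551 and 544 in smSP and 559, 513, 516 and 485 in mSP. The preTreg library of deficient mouse 1 was within the range of the Treg libraries. The log2 fold of preTreg was 0.41 ± 0.07 over mSP (adjusted p = 2.47e-06) and 0.32 ± 0.07 over smSP (0.000133). That of Treg over preTreg, -0.19 ± 0.07 (0.0291), was lost in 5 of the 16 fits without 1 library: without the Treg library of sufficient mouse 2, deficient mouse 1 or deficient mouse 2, or the preTreg library of sufficient mouse 2 or deficient mouse 2, with adjusted p up to 0.311. It was also lost with all libraries kept, under equal totals (-0.14, 0.108) and quantile normalisation (-0.13, 0.130).

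The Tcf12 sum passed the test in none of these comparisons, with means of 633 ± 19.5 in Treg, 632 ± 27.6 in preTreg, 649 ± 38.4 in smSP and 614 ± 47.3 in mSP (SD, n = 4 libraries, limma adjusted p from 0.376 to 0.982). Its peaks with opposite directions, such as those at +206 kb and +14.6 kb, enter the same sum.

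**Figure D4:**
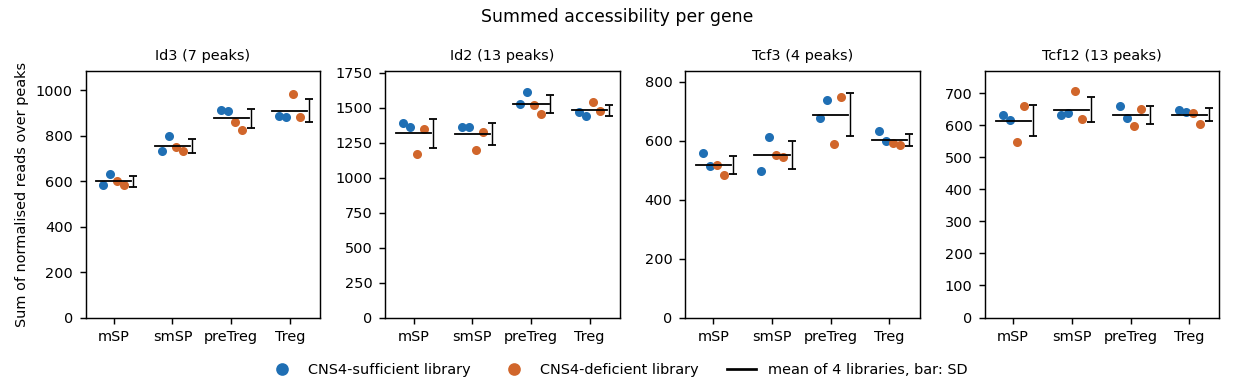
Sum of normalised counts over the peaks of each gene, 1 panel per gene, by labelled population. Points are single libraries, marked by genotype, lines are means and whiskers SDs over 4 libraries. The Id3 sums of the libraries labelled mSP (582 to 634) lie below all others, and the Tcf12 sums overlap between all 4 populations.

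Between mSP and smSP, limma on all libraries called peaks at Id3 and at none of the other 3 genes. Under other settings Tcf12 peaks were called as well: +0.037 kb with equal totals (adjusted p = 0.0427) and after quantile normalisation (0.0304), +238 kb with edgeR (0.0380), and +14.6 and -21.1 kb without the mSP and smSP libraries of deficient mouse 2 (0.0377 and 0.0382). Over smSP, the log2 fold of mSP was -0.65 ± 0.18 at -43.2 kb (adjusted p = 0.0129), -0.51 ± 0.16 at -36.8 kb (0.0307), -0.40 ± 0.09 at the promoter (0.00253), -0.58 ± 0.15 at +0.974 kb (0.00576) and -0.38 ± 0.09 at +4.14 kb (0.00254). The first of these was lost without the mSP library of sufficient mouse 1 (0.0653) or deficient mouse 1 (0.0694) or the smSP library of sufficient mouse 1 (0.0614). That at -36.8 kb was lost without the mSP library of sufficient mouse 1 (0.163) or deficient mouse 1 (0.082) or the smSP library of sufficient mouse 2 (0.106) or deficient mouse 1 (0.133). The Id3 sum fell by 0.33 ± 0.06 on the log2 scale (1.07e-05).

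These differences depend on the labels of deficient mouse 2. With its mSP and smSP libraries named by their descriptions, 0 of the 37 and 0.0% of all peaks were called and the log2 fold of the Id3 sum was -0.17 (adjusted p = 0.363). With both libraries left out, 8 of the 37 were called, 1 higher and 7 lower in mSP, and 13.6% of all peaks. Without the mSP library of that mouse alone, 9 were called (13.7% of all peaks). Without the mSP library of sufficient mouse 1 or of deficient mouse 1, the count was 3 (11.2% and 12.5% of all peaks). In the sufficient mice alone the Id3 peak at +4.14 kb was the 1 of 37 to pass the test, which called 5.49% of all peaks. With the mouse as a block, 6 were called, since the Tcf12 peak at +238 kb was then higher in mSP by a log2 fold of 0.41 (0.0467). By title, both libraries of this mouse lay near those of the same title. At Cd24a the 4 libraries titled mSP all held 554 to 582 and the 4 titled smSP 257 to 340. On the first principal component the mSP library of deficient mouse 2 was at 138 and the other 3 at 139 to 155, and its smSP library at 91.6 and the other 3 at 77.1 to 88.8.

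The same labels bear on calls of the other comparisons. By description, preTreg against mSP lost Id3 -0.034 kb (adjusted p = 0.0938), Id3 -42.9 kb (0.0877), Id2 +0.798 kb (0.0956), Tcf12 +13.7 kb (0.0636) and Tcf12 +0.037 kb (0.120). Against smSP it lost Tcf3 -12.4 kb (0.0773) and Tcf12 -21.9 kb (0.0635). Treg against preTreg lost Tcf3 -0.08 kb (0.0662), Id2 +0.798 kb (0.0642), Tcf12 +215 kb (0.0764) and the Tcf3 sum (0.0805). The folds of these 4 were the same as by title, since no Treg or preTreg library is renamed. Without both libraries, preTreg against mSP lost Id3 -42.9 kb (0.158) and Id2 +0.798 kb (0.0719), and preTreg against smSP lost Tcf3 -12.4 kb (0.0514), Id2 +0.219 kb (0.0780), Tcf12 +215 kb (0.0537) and Tcf12 -21.9 kb (0.148).

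The sufficient mice alone, with 2 libraries per population, kept 18 of the 27 calls of preTreg against mSP, 13 of the 21 against smSP and 6 of the 10 of Treg against preTreg, where 44.8%, 34.0% and 21.7% of all peaks were called. They gained Id2 -2.28 kb in preTreg over mSP (1.00, limma adjusted p = 0.0339) and Tcf12 +206 kb in Treg over preTreg (1.1, 0.0444). Besides those given above, the losses with a fold that moved by over 1.5 times were Tcf12 +215 kb in preTreg over mSP (0.71, 0.0884, against 1.07 in all mice) and, in mSP against smSP, Id3 -43.2 kb (-0.40, 0.426) and Id3 -0.034 kb (-0.20, 0.424).

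The study compared mice with and without CNS4. None of the 37 peaks was called between genotypes in any population, while of all peaks 1.77% were called for Treg, 0.409% for preTreg, 0.246% for mSP and 0.0848% for smSP. At an unadjusted p below 0.05 15 of 148 tests passed: 3 for Treg, 3 for preTreg, 6 for mSP and 3 for smSP. Of all peaks, 14.5%, 9.17%, 9.63% and 10.0% passed at that level in the same order. On recovered reads edgeR called 0 of the 37, where it called 2.78%, 0.946%, 0.412% and 0.108% of all peaks in that order. DESeq2 also called 0, against 0.8%, 0.554%, 0.32% and 0.0861%. Over all populations limma called 0 (2.36% of all peaks), with 5 at an unadjusted p below 0.05, as were 14.6% of all peaks. The difference of the genotype effect between populations also gave 0 (0.402% of all peaks), with 5 unadjusted, as were 10.6% of all peaks. With 2 mice per genotype, moderate changes at these peaks could have gone undetected.

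The peak nearest to a call was Tcf12 +206 kb in Treg, with 22.3 and 23.5 normalised counts in the sufficient and 4.86 and 12.5 in the deficient mice. Its log2 fold was -1.42 ± 0.40 (adjusted p = 0.0558). It was called without the Treg library of deficient mouse 2 (-2.02, 0.00535) and without the mSP and smSP libraries of that mouse (0.0493). In mSP, Tcf12 +216 kb held 39.1 and 33.2 in sufficient against 13.8 and 11.5 in deficient mice (-1.45 ± 0.38, 0.0900). Also in mSP, Id2 -2.56 kb held 34.9 and 27.8 against 9.18 and 15.8 (-1.30 ± 0.34, 0.101), and it was called without the mSP library of deficient mouse 2 (-1.66, 0.0461).

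In smSP, Id3 -36.8 kb held 48.3 and 56.5 normalised counts in sufficient against 32.2 and 25.0 in deficient mice (-0.86 ± 0.23, adjusted p = 0.138). Id2 -21.9 kb held 155 and 159 against 84.6 and 111 in smSP (-0.69 ± 0.21, 0.180). None of these passed the test with all libraries. Without deficient mouse 2, the comparison over all populations called 3 of the 37 and 6.87% of all peaks. The 3 were lower in the deficient mouse left: Id2 -21.9 kb (-0.51, 0.000604), Tcf12 +238 kb (-0.50, 0.00308) and Id3 -43.2 kb (-0.46, 0.0449). That fit rests on 1 deficient mouse. No gene sum was called between genotypes (limma over 13526 genes, of which 6.58% were called for Treg, 1.41% for preTreg, 1.27% for mSP and 1.04% for smSP), and the lowest unadjusted p was 0.0459, for Id2 in mSP (log2 fold -0.14, adjusted p = 0.382).

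**Figure D5:**
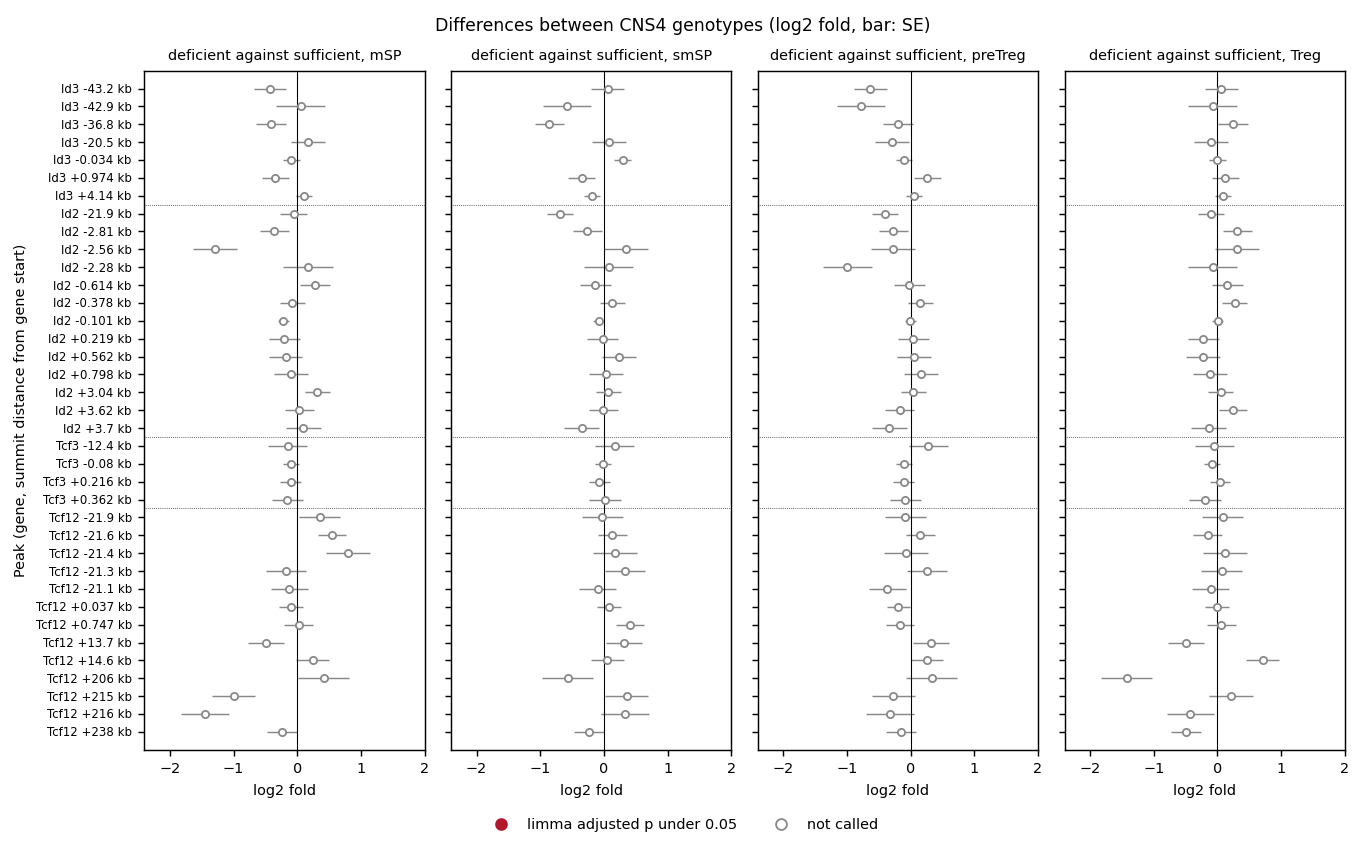
Log2 fold of each of the 37 peaks between CNS4-deficient and CNS4-sufficient mice with its standard error, 1 panel per labelled population, grouped by gene. No point is filled, that is, none passed the test. The largest falls are those of Tcf12 +206 kb in Treg (-1.42) and Tcf12 +216 kb in mSP (-1.45).

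Other genes of the pathway were taken as 3 lists. The peaks named from them were drawn from the called peaks with the largest absolute log2 folds of a list in a comparison, so they show its extremes. Partners and cofactors of E and Id proteins had peaks at 10 of 13 genes, 70 peaks in all. Of these, 22 were higher and 22 lower in preTreg than in mSP, 23 and 19 against smSP, 9 higher and 11 lower in Treg than in preTreg, and 7 and 1 in mSP against smSP, with medians of 0.03, -0.03, -0.05 and 0.02. The called shares were 62.9%, 60.0%, 28.6% and 11.4%, against 58.3%, 47.3%, 28.8% and 15.9% of all peaks. The peak within Bhlhe40, a helix-loop-helix repressor induced in activated T cells, held 83.1 ± 10.1 normalised counts in preTreg and 10.8 ± 1.85 in mSP (SD, n = 4 libraries; log2 fold 2.84, limma adjusted p = 2.83e-11). Lyl1, a helix-loop-helix partner of E proteins, had a peak with 36.8 ± 7.75 in Treg and 81.8 ± 18.7 in preTreg (limma adjusted p = 2.07e-05).

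Genes known as E protein targets in thymocytes had peaks at 12 of 13 genes, with 162 tested. Of these, 47 were higher and 33 lower in preTreg than in mSP, 28 and 32 against smSP, 34 higher and 11 lower in Treg than in preTreg, and 10 and 23 in mSP against smSP. The called shares, in the same order, were 49.4%, 37%, 27.8% and 20.4%, so those against mSP and smSP were below the shares of all peaks and that of Treg against preTreg close to it. Their median log2 fold of Treg over preTreg was 0.15, where that of all peaks was -0.03. A peak of Rag1, the recombinase gene, held 44.8 ± 6.06 normalised counts in preTreg and 211 ± 23.0 in mSP (SD, n = 4 libraries; log2 fold -2.21, limma adjusted p = 4.74e-14). A peak of Cxcr5, a chemokine receptor gene, went the other way, with 75.3 ± 16.1 against 8.97 ± 2.77 (2.96, limma adjusted p = 8.84e-11). A peak of Bcl6, a repressor known from follicular T cells, held 57.0 ± 2.90 in Treg and 12.4 ± 9.06 in preTreg (2.38, limma adjusted p = 2.24e-05).

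Genes of signals known to induce Id genes (Egr factors, TGF-beta and BMP receptors and Smad3) had peaks at 6 of 7 genes, 94 in all. Of these, 30 were higher and 27 lower in preTreg than in mSP, and 22 and 28 against smSP. There were 11 and 11 in Treg against preTreg, and 5 and 12 in mSP against smSP. The called shares were 60.6%, 53.2%, 23.4% and 18.1%, against 58.3%, 47.3%, 28.8% and 15.9% of all peaks. A peak of Tgfbr2, a TGF-beta receptor gene, held 68.8 ± 20.4 normalised counts in preTreg, 26.7 ± 7.34 in Treg and 1.65 ± 0.878 in mSP (SD, n = 4 libraries; log2 fold of preTreg over mSP 4.73, limma adjusted p = 2.66e-12). Between genotypes, over the 4 populations, this list had 4 calls in 376 tests (1.06%), the E protein targets 1 in 648 (0.154%) and the partners 0 in 280. All peaks had 0.627% in the same 4 comparisons, so counts this small set no list apart. The 5 were peaks of Smad3 in Treg (0.60, limma adjusted p = 0.0158), Tgfbr2 in Treg (-0.59, 0.0235), preTreg (1.28, 0.00573) and mSP (0.98, 0.0219), and Cxcr5 in preTreg (0.51, 0.0333).

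The genes whose peak sums followed each member most closely over the 16 libraries were found by Pearson's correlation among 8668 genes with at least 3 peaks and a mean sum of at least 100. For Id3 they were Ccnd2 (0.98), Tagap (0.97) and Rcn3 (0.97). For Id2 they were Eif1a (0.96), Cyp51 (0.95) and Zbed5 (0.94), and for Tcf3 Prmt5 (0.92), Narf (0.91) and Aldoa (0.91). For Tcf12, whose sum hardly varied, they were weaker: Zfp398 (0.81), Zfp39 (0.78) and Ncoa3 (0.73). These values describe the 16 libraries, which share mice and fall into 4 populations, and carry no test.

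Markers of other cells and stages moved with the same comparisons. The list of immature thymocyte genes summed to 4597 to 4882 normalised counts in mSP, 4022 to 4403 in smSP and 1929 to 2142 in preTreg, and 46 of its 47 peaks were lower in preTreg than in mSP. In Treg it was 3520 to 3740 in the sufficient and 1935 to 2626 in the deficient mice. The list of innate-like T cell genes, with peaks at 4 of 5 genes, summed to 1704 to 1899 in preTreg, 2183 to 2283 in mSP, 1891 to 2089 in smSP and 1499 to 1527 in Treg. Of its 28 peaks tested, 7 were higher and 12 lower in preTreg than in mSP. Its genes went both ways: Tbx21 summed to 149 to 170 in preTreg and at most 33.6 elsewhere, and Nkg7 to 159 to 211 and at most 74.2. Zbtb16 summed to 60.8 to 84.9 in preTreg and 148 to 184 in mSP, and Klrb1c to 1257 to 1508 and 1982 to 2086. There was no peak at Ms4a1, Lyz2, Csf1r, Ncr1, Hbb-bt or Krt8, which mark B, myeloid, NK, red and epithelial cells. The part of the immature and innate-like cells in the differences at Id3, Id2, Tcf3 and Tcf12 was not tested.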

How the data were processed

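The 16 libraries were grouped by their titles. The submitters' processing notes name Trimmomatic 0.36, STAR 2.5.4b, SAMtools 1.10, R 3.6.3, DESeq2 1.24.0 and Genrich, the last with no version, and the build mm10, without roles or settings. The deposited values are a signal: the authors divided each peak's reads by 1 factor per library (0.697 to 1.45). Every value was a whole multiple of 1 read within 0.0001 reads, so the reads were recovered. No source used here says whether reads were shifted for the transposase. Numbers of peaks reach 84054 with 10612 missing, by an unstated filter.

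Gene bodies, strands and promoters came from RefSeq tables of GRCm38.p6, and peak coordinates are as deposited. The test was limma 3.58.1 in R 4.3.3, with trend and robust options, on log2 of the deposited value plus 1. It used 8 group means, with 1 spread per peak shared by all groups, on the 73140 peaks with a mean of 10 or more. As alternatives, edgeR 4.0.16 and DESeq2 1.42.0 were run on the recovered reads. The scripts were tested on simulated data. Libraries of 1 mouse share a mouse number in the labels, so the mouse was a block in another alternative. Deviations of same-mouse libraries from their group means correlated at -0.00919 to 0.0879. Peaks were named by rule: per gene the one with the highest mean, the one nearest a start and the 3 largest called folds of each comparison. Members and lists were chosen with earlier results of these data known.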

Additional observations from a re-analysis of the deposited data

Results flagged for a closer look

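The 104 groups of 4 libraries, 1 for each gene sum or named peak in each population, were examined for a library far from the others with Dixon's test, which chance alone passes in about 1 of 20 groups. In 4 of the 104 groups a library stood apart, which is no more than that rate. The Id3 sum was 986 in the Treg library of deficient mouse 1, while the other Treg libraries held 882 to 888 normalised counts. The Id3 peak at -36.8 kb, which is part of that sum, held 162 in the same library, against 119 to 124 in the others. The Tcf3 peak at +0.362 kb held 50.9 in the Treg library of deficient mouse 2, against 63.2 to 65.6. The Tcf3 peak at +0.216 kb held 112 in the mSP library of deficient mouse 1, against 128 to 129.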

How the results depend on the processing

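DESeq2 called 6 peaks in Treg against preTreg and 3 in mSP against smSP (23.0% and 10.2% of all peaks). Peaks within gene bodies alone gave 5 calls in Treg against preTreg, 15 in preTreg against mSP, 10 in preTreg against smSP and 2 in mSP against smSP, where 26.9%, 56.9%, 45.6% and 14.8% of all peaks in gene bodies were called. In sufficient mice alone 13 were called in preTreg against smSP and 1 in mSP against smSP (34.0% and 5.49% of all peaks). Leaving out 1 library gave 5 to 10 calls in Treg against preTreg and 3 to 9 in mSP against smSP (23.5% to 29.4% and 10.6% to 17.1% of all peaks). It gave 0 to 1 for genotype in Treg, in mSP and for its difference between populations (0.241% to 3.99%, 0.0383% to 0.511% and 0.0451% to 1.51%), and leaving out 1 mouse gave 0 to 3 for genotype over all populations (0.712% to 6.87%). Without the mSP and smSP libraries of deficient mouse 2, an alternative chosen after seeing the data, there were 8 calls in mSP against smSP (13.6% of all peaks) and 1 each for genotype in Treg and in mSP. With these named by description there were 0 in mSP against smSP. With the mouse as a replicate block, the counts were 11 in Treg against preTreg, 27 in preTreg against mSP, 21 in preTreg against smSP and 6 in mSP against smSP (29.6%, 58.9%, 48.0% and 16.9% of all peaks). Beside the calls gained in the first and last, no call of these 4 comparisons changed. DESeq2 was not run for genotype over all populations or its difference between them.

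The sums that changed sign were uncalled under limma with all libraries. Log2 folds for Tcf12 after quantile normalisation were -0.0575 (preTreg against mSP) and -0.000473 (Treg against mSP). For Id2 in Treg against preTreg they were 0.000859 with equal totals and 0.00828 after quantile normalisation. For Id2 in mSP against smSP they were -0.00648 by description, -0.0294 with equal totals, -0.027 after quantile normalisation and -0.0112 without both libraries of deficient mouse 2. For Id3 between genotypes in mSP the fold was 0.131 by description. Without 1 library, Tcf12 ranged from -0.028 to 0.0326 (Treg against preTreg), -0.0224 to 0.111 (preTreg against mSP), -0.0818 to 0.0104 (preTreg against smSP), -0.0201 to 0.113 (Treg against mSP) and -0.0795 to 0.0127 (Treg against smSP). Between genotypes Tcf12 ranged from -0.0975 to 0.0236 (preTreg), -0.186 to 0.081 (mSP) and -0.0319 to 0.153 (smSP), Tcf3 from -0.262 to 0.0815 (preTreg) and -0.16 to 0.139 (smSP), and Id3 from -0.00136 to 0.156 (Treg), -0.097 to 0.0254 (mSP) and -0.107 to 0.0156 (smSP). Id2 in mSP against smSP ranged from -0.0475 to 0.0555. The cause was not tested. Depth, a median of 38 to 76 reads per peak, limits small folds at weak peaks.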
